A study of Homo sapiens with 6 samples.

Results

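The GATA transcription factors and their Friend of GATA (FOG) cofactors were followed as 8 genes, GATA1, GATA2, GATA3, GATA4, GATA5, GATA6, ZFPM1 (FOG1) and ZFPM2 (FOG2), out of 60483 genes in the count table. They were found by Ensembl gene identifier. The set was chosen with the values of these libraries in view, for a higher GATA4 level in HELLS KO than in HAP1 cells. The difference between the genotypes is therefore described for these genes, and calls of the fits are not read as tests of them. Of the 8, 5 passed the filter on low counts and entered the fit across 17925 genes. GATA1, GATA5 and ZFPM2 did not pass, and their counts are given below.

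RNA-seq was performed in HAP1 (C631) cells, a near-haploid human line derived from a chronic myelogenous leukemia, and in a HELLS KO derivative of the same line. HELLS (lymphoid-specific helicase) is a SNF2-family chromatin remodeler with a known role in DNA methylation. The HELLS KO cells carry an insertion of a single base pair in exon 3 of HELLS and are 1 purchased clone, and both genotypes were grown under normal conditions without a drug. Each genotype had 3 libraries of total RNA, and replicate 3 of both bears a batch label. Because 1 clone was compared with 1 parental line, the loss of HELLS and other differences of the clone cannot be told apart. The p-values given here measure only the spread between these libraries.

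GATA factors are zinc finger proteins that bind the DNA motif from which they take their name. GATA1, GATA2 and GATA3 are known for their roles in blood development, GATA3 also in T cells, breast epithelium and trophoblast, whereas GATA4, GATA5 and GATA6 act in the heart, the endoderm and the gonads. Members of the family can replace one another at a target gene, as in the switch from GATA2 to GATA1 during erythroid maturation, and FOG1 and FOG2 bind the amino-terminal zinc finger of a GATA protein and recruit co-regulators such as the NuRD complex.

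The promoters of the GATA factor at the highest level (GATA2) and of both factors that were lower in every HELLS KO library (GATA3 and GATA6) are shown first, each from 250 bases before to 50 bases after an annotated start in RefSeq on GRCh38.p14, 5′ to 3′ on the strand of the gene. Capitals mark CpG dinucleotides, the site of DNA methylation in human cells. The windows lie at chr3:128493152-128493451 on the − strand (GATA2), chr10:8054438-8054737 on the + strand (GATA3) and chr18:22169339-22169638 on the + strand (GATA6), and each holds the start of the gene's MANE Select transcript.
GATA2: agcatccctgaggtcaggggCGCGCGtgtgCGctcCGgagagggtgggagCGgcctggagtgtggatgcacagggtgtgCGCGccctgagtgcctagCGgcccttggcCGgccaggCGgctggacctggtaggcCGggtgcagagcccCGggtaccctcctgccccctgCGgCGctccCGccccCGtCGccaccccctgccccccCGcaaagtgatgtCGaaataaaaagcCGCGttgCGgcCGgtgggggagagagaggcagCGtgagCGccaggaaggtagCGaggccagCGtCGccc
GATA3: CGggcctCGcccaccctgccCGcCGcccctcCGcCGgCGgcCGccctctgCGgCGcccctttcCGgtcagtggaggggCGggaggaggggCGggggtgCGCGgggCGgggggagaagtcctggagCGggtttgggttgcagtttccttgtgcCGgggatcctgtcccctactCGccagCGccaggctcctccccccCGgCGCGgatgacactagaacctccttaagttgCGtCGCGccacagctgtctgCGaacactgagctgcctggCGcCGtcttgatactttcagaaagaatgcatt
GATA6: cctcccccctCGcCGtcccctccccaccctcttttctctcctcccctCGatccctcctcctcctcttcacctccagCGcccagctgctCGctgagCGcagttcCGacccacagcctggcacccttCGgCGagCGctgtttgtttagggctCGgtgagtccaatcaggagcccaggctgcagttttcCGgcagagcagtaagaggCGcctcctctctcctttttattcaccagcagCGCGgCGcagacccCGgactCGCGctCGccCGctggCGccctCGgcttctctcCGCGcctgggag

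Each of these promoters held more CpG than the median promoter. GATA2 and GATA3 held 29 CpG each and GATA6 held 25, against a median of 14 in 34943 RefSeq promoter windows of 300 bases. The ratio of observed to expected CpG was 0.744 for GATA2, 0.804 for GATA3 and 0.824 for GATA6, which lay at the 61.9, 68.6 and 70.9 percentiles of all windows, whose median was 0.577. Among the 5 members with a window used here, GATA1, GATA2, GATA3, GATA6 and ZFPM1, the ZFPM1 promoter had the highest ratio, 0.94 with 47 CpG, and the GATA1 promoter the lowest, 0.204 with 7 CpG. The GATA-binding motif AGATAA (or TTATCT on the other strand) was in 10.4% of all windows and in 0 of the 11 windows of these genes. The promoters of GATA4, GATA5 and ZFPM2 were not analyzed here. DNA methylation was not analyzed here. By ELISA, a global measure, the authors found CpG methylation in HAP1 cells unaffected by HELLS loss.

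The libraries held between 13641237 and 24400187 counts, and replicate 3 of each genotype was the deepest. A total of 3 counts, the limit that a count of 0 allows, came to between 0.123 and 0.218 CPM, counts scaled to the library total times its TMM normalization factor. This limit covers counting error only. HELLS RNA was at 101, 108 and 153 CPM in HAP1 and at 96.7, 96.1 and 115 CPM in HELLS KO, so its RNA level does not separate the genotypes, and the insertion itself was not read here. Of 14 blood identity markers only CORO1A, an actin-binding protein of leukocytes, was well expressed, with 580 to 759 counts in a library, whereas PTPRC (CD45) had at most 2 counts. SPI1, the myeloid master factor, which is not among the 14, had 0 counts in all 6 libraries. Other blood factors were expressed. TAL1 had 1137 to 2400 counts in a library, MYB had 352 to 890 and RUNX1 had 285 to 938. No cell identity is read from these genes.

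GATA4, a factor of heart and endoderm development, was barely detected in HAP1 and was well above the filter on low counts in HELLS KO. It had 12, 20 and 20 counts in HAP1 replicates 1 to 3 and 677, 717 and 1262 counts in HELLS KO replicates 1 to 3. In CPM these were 0.842, 1.45 and 0.832 in HAP1 against 46.4, 50.1 and 51.7 in HELLS KO. Every HELLS KO library was far above every HAP1 library, and no library lay between. The mean rose from 1.04 ± 0.355 to 49.4 ± 2.71 CPM (SD, n = 3), a 47.4-fold difference and a log2 fold change of 5.59 (SE 0.26) in the edgeR fit. The fold was 42.1 over replicates 1 and 2 and 62.2 in replicate 3, which has the batch label. The libraries are of bulk RNA, so a few cells with much GATA4 and many cells with a little cannot be told apart, nor can fewer cells of a type and less RNA per cell for the genes that were lower.

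Across the genome, 2.22% of the 17925 tested genes passed both cut-offs in edgeR (adjusted p under 0.05, and a log2 fold change of 1 or more in either direction), 1.50% higher and 0.720% lower in HELLS KO. GATA4 was the only one of the 5 tested members past both cut-offs, in the higher direction, and 0 members passed in the lower direction. Since GATA4 was selected on this contrast, nothing is read from that count. By size of log2 fold change GATA4 was 154th of the 269 genes called higher, of which 152 never exceeded 3 counts in a HAP1 library. Among the 44 called higher that had at least 10 counts in all 6 libraries, GATA4 had the largest log2 fold change. By mean CPM in HELLS KO it was 20th of the 269. The floor of 10 counts, which GATA4 cleared with 12 in HAP1 replicate 1, leaves out genes with larger folds. These ranks use the contrast on which GATA4 was chosen and are a description.

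**Figure D1:**
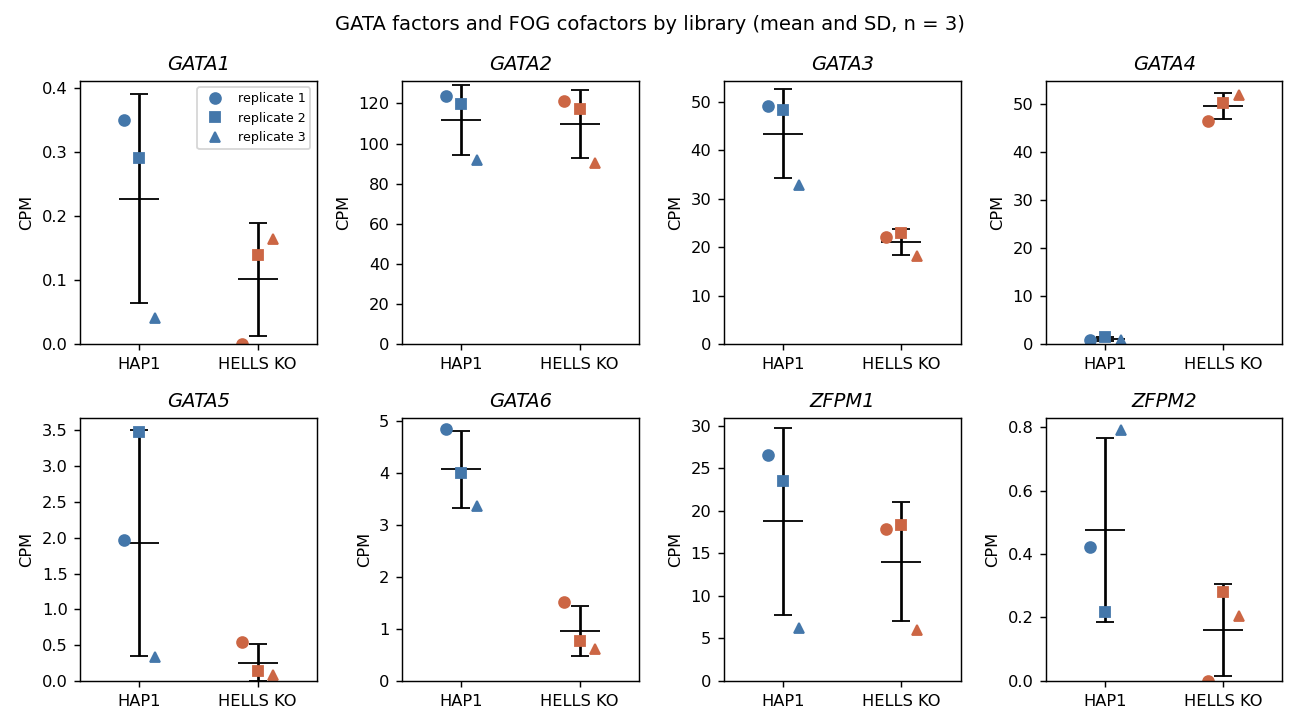
Level of each of the 8 genes in CPM (y axis, linear, a separate scale for each gene) in the 3 HAP1 and 3 HELLS KO libraries. Symbols are libraries, with the replicate number as shape, and bars are the mean and SD (n = 3). GATA4 lay at 0.832 to 1.45 CPM in HAP1 and at 46.4 to 51.7 CPM in HELLS KO, whereas GATA3 and GATA6 lay lower in all 3 HELLS KO libraries and the other 5 genes overlapped.

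GATA6, the closest relative of GATA4 in function and a regulator of extraembryonic endoderm and heart, was lower in HELLS KO. It had 69, 55 and 81 counts in HAP1 against 22, 11 and 15 in HELLS KO, or 4.84, 3.99 and 3.37 CPM against 1.51, 0.769 and 0.614 CPM. The lowest HAP1 library was above the highest HELLS KO library. The means were 4.07 ± 0.740 and 0.964 ± 0.478 CPM (SD, n = 3), 4.22-fold lower in HELLS KO (log2 fold change -2.09, SE 0.41). The fold was 3.88 over replicates 1 and 2 and 5.48 in replicate 3. Of the 31-base stretches of the GATA6 transcripts, 9.74% also occur in other annotated genes. The top partner was ENSG00000266283, which has no symbol here. Part of the GATA6 reads could thus have been assigned elsewhere.

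GATA3, the T cell, breast and trophoblast factor, was lower in HELLS KO by a smaller factor. It had 701, 665 and 791 counts in HAP1 against 323, 329 and 442 in HELLS KO, or 49.2, 48.3 and 32.9 CPM against 22.2, 23.0 and 18.1 CPM. Again no library of one genotype reached the range of the other. The means were 43.5 ± 9.16 and 21.1 ± 2.61 CPM (SD, n = 3), 2.06-fold lower, with a log2 fold change of -1.04 (SE 0.20). Replicates 1 and 2 gave 2.16-fold and replicate 3 gave 1.82-fold.

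GATA3 lay next to both cut-offs, and GATA6, with a log2 fold change of -2.09, only next to that on the adjusted p. Both missed the cut-off on the adjusted p in the edgeR fit without a replicate block. With the replicate number as a block both passed as lower. The block left the log2 fold changes at -1.03 for GATA3, -2.14 for GATA6 and 5.61 for GATA4. Among 16 other ways of fitting the data GATA4 passed in 16, GATA3 in 6 and GATA6 in 5. These passes, like the GATA4 call, use the contrast on which the genes were chosen and are given as a description. Across all tested genes 10.1% had libraries that did not overlap between the genotypes, and 3 of the 5 tested members, GATA3, GATA4 and GATA6, were among those.

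GATA2, the factor of hematopoietic stem and progenitor cells and the GATA gene with the highest level in both genotypes, was at nearly the same level in them. It had 1761, 1652 and 2203 counts in HAP1 against 1771, 1680 and 2204 in HELLS KO. The means were 112 ± 17.5 and 110 ± 16.9 CPM (SD, n = 3) with full overlap, and the log2 fold change was -0.03 (SE 0.17). Its sign turned when single libraries were left out, between -0.15 and 0.09. GATA2-AS1, the antisense gene that overlaps the start of GATA2, had 420, 364 and 708 counts in HAP1 against 520, 479 and 807 in HELLS KO (log2 fold change 0.26, SE 0.13, edgeR adjusted p = 1). Its CPM did not overlap, at 26.4 to 29.5 in HAP1 and 33.1 to 35.7 in HELLS KO. The kit was directional but the strand setting of the counting was not given in the sources used here. Reads of GATA2 and GATA2-AS1 may therefore not be fully separated. Of the 31-base stretches of GATA2 transcripts, 1.14% are shared with other genes, with GATA2-AS1 as the top partner.

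GATA5 and GATA1 were at or near the limit of detection in HELLS KO. GATA5, which acts in endocardium and gut, had 28, 48 and 8 counts in HAP1 against 8, 2 and 2 in HELLS KO, or 1.97, 3.48 and 0.333 CPM against 0.549, 0.140 and 0.0819 CPM. The ranges of the genotypes overlapped through HAP1 replicate 3, but within each replicate number HELLS KO was lower, and the means were 7.51-fold apart. It did not enter the fit because only 2 libraries were above the filter. It could be fitted in 8 of the 16 other ways, with log2 fold changes from -4.08 to -0.60, and passed both cut-offs in 0 of them. GATA1, the erythroid and megakaryocytic master factor, had 5, 4 and 1 counts in HAP1 against 0, 2 and 4 in HELLS KO. At these counts a difference in GATA1 was not detectable.

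Neither FOG cofactor was higher in HELLS KO throughout. ZFPM1, the partner of GATA1 in blood, had 379, 324 and 149 counts in HAP1 against 260, 262 and 146 in HELLS KO, or 26.6, 23.5 and 6.20 CPM against 17.8, 18.3 and 5.98 CPM. Replicate 3 was far below the others in both genotypes, the ranges overlapped, and the log2 fold change was -0.42 (SE 0.60). ZFPM2, the partner of GATA4 in heart and gonad, had 6, 3 and 19 counts in HAP1 against 0, 4 and 5 in HELLS KO. It was thus at or close to the limit of 3 counts in the cells in which GATA4 was high, and no fold is given. ZFPM2-AS1, which overlaps it on the other strand, was at 0 in the HAP1 libraries and at 4, 7 and 25 counts in HELLS KO, too few to enter the fit.

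GATA4 was thus the only one of the 6 GATA factors and both FOG cofactors with a higher level in every HELLS KO library than in every HAP1 library. The antisense genes of GATA3, GATA6 and ZFPM1 were near 0 on both sides. GATA3-AS1 had 3, 6 and 8 counts in HAP1 against 0, 4 and 0 in HELLS KO, GATA6-AS1 had 4, 2 and 4 against 0, 2 and 0, and ZFPM1-AS1 had 5, 2 and 0 against 0, 4 and 5.

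Levels between genes were compared per length, in the deposited FPKM values, which are scaled to gene length and library size. In HAP1 the order of the means was GATA2 (24.8 ± 4.05), GATA3 (13.2 ± 2.87), GATA6 (1.02 ± 0.192), GATA5 (0.737 ± 0.604), GATA4 (0.232 ± 0.0800) and GATA1 (0.151 ± 0.109), each as SD over 3 libraries. GATA2 stood above GATA3 and GATA3 above GATA6 in every library, whereas GATA6 and GATA5, GATA5 and GATA4, and GATA4 and GATA1 each overlapped. In HELLS KO the order was GATA2 (24.2 ± 3.64), GATA4 (10.95 ± 0.611), GATA3 (6.38 ± 0.753), GATA6 (0.241 ± 0.120), GATA5 (0.0975 ± 0.0968) and GATA1 (0.0664 ± 0.0582), and the first 3 did not overlap one another. GATA6 and GATA5 overlapped there, as did GATA5 and GATA1. The FOG cofactor ZFPM1 was at 3.05 ± 1.80 FPKM in HAP1 and 2.26 ± 1.12 in HELLS KO, and ZFPM2 was at 0.0604 ± 0.0364 and 0.0204 ± 0.0182.

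The sum over the 6 GATA factors overlapped between the genotypes while the share of GATA4 in it did not. It was 44.9, 44.3 and 31.2 FPKM in HAP1 and 44.5, 43.95 and 37.4 FPKM in HELLS KO. GATA4 made up 0.419, 0.733 and 0.588% of the sum in HAP1 and 23.2, 25.1 and 30.8% in HELLS KO, a change in the mean from 0.580% ± 0.157 to 26.4% ± 3.99 (SD, n = 3). The share of GATA3 went from 32.8% ± 0.930 to 15.2% ± 0.481, and that of GATA2 from 62.0% ± 2.21 to 57.5% ± 3.49. Among GATA4, GATA5 and GATA6, the group of heart and endoderm factors, GATA4 was 12.3% ± 3.65 of the summed FPKM in HAP1 and 97.0% ± 2.05 in HELLS KO, and the sum itself went from 1.99 ± 0.772 to 11.3 ± 0.412 FPKM. The ratio of GATA4 to GATA6 was 0.154, 0.323 and 0.219 in HAP1 and 27.3, 57.9 and 74.7 in HELLS KO. Within a library, GATA4 stood at the 3.94, 6.71 and 3.63 percentiles of the FPKM of all tested genes in HAP1 and at the 59.8, 60.6 and 60.6 percentiles in HELLS KO.

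**Figure D2:**
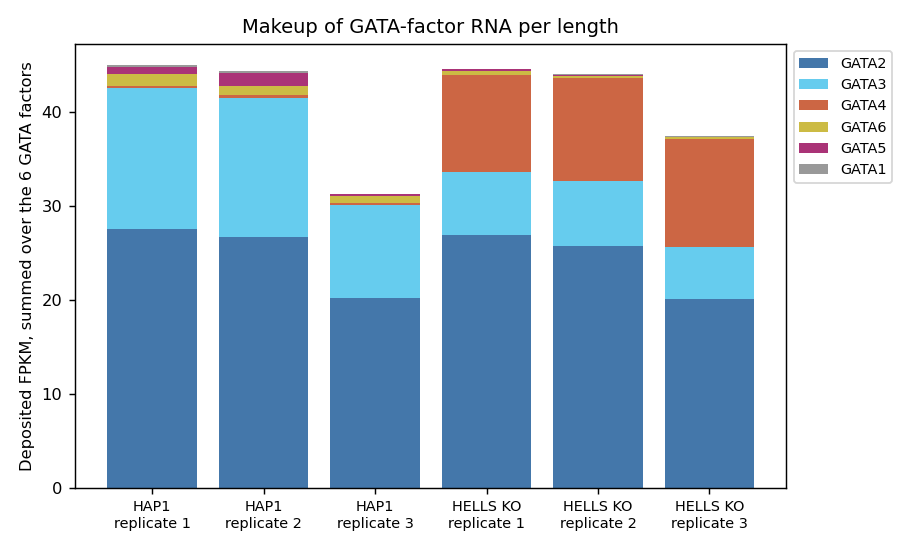
Deposited FPKM of the 6 GATA factors stacked for each library (y axis, linear, from 0), with color for the gene. The stacks reach 31.2 to 44.9 FPKM in HAP1 and 37.4 to 44.5 FPKM in HELLS KO, and the GATA4 segment is between 23.2 and 30.8% of the stack in HELLS KO.

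Replicate 3 differed from replicates 1 and 2 in both genotypes, and the difference went with GC content. Across 17688 genes, which are not independent replicates, the ratio of the CPM in replicate 3 to the mean of replicates 1 and 2 correlated with the GC content of the longest transcript at a Pearson r of -0.542 in HAP1 and -0.452 in HELLS KO. The median ratio was 1.43 in HAP1 and 1.27 in HELLS KO for genes below 40% GC, and 0.573 and 0.633 for genes at or above 65% GC. ZFPM1, with 68.9% GC the richest of the 8, had ratios of 0.247 and 0.331. GATA2 had 0.752 and 0.756, GATA3 0.675 and 0.802, and GATA6 0.763 and 0.540. For GATA4, with 59.95% GC, the ratio was 0.725 in HAP1 and 1.07 in HELLS KO. GATA4 differed 42.1-fold without replicate 3, as given above.

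**Figure D3:**
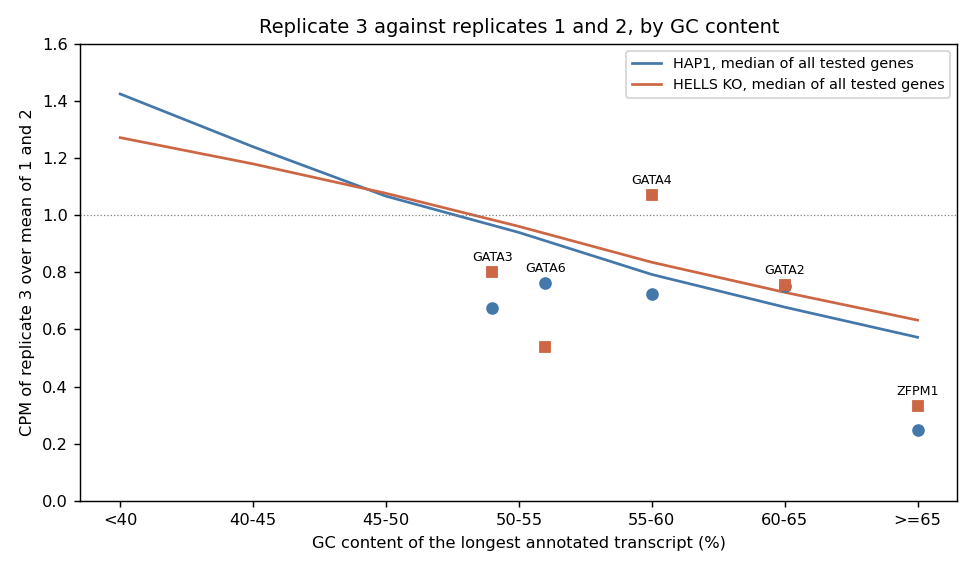
Ratio of the CPM in replicate 3 to the mean of replicates 1 and 2 (y axis, linear) against classes of GC content of the longest annotated transcript (x axis). Lines are medians of all genes with a GC value, circles (HAP1) and squares (HELLS KO) are the 5 tested members, and the lines fall from 1.43 and 1.27 to 0.573 and 0.633.

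Replicate 3 of both genotypes also held more of some muscle and blood transcripts than the other libraries. TTN, the giant sarcomere protein, had 6, 6 and 948 counts in HAP1 against 27, 34 and 968 in HELLS KO, and so was higher in HELLS KO within replicates 1 and 2. HBB had 0, 0 and 330 counts against 0, 0 and 269, and MYH7 had 0, 0 and 50 against 0, 0 and 32. The summed level of the 8 cardiomyocyte markers was 9.96, 11.4 and 50.2 CPM in HAP1 and 9.05, 11.5 and 51.0 CPM in HELLS KO, of which TNNT2 had 0 counts in 5 of the 6 libraries. GATA4 was at 0.832 CPM in HAP1 replicate 3. It was at 46.4 and 50.1 CPM in HELLS KO replicates 1 and 2, where MYH7 and HBB had 0 counts and TTN had 27 and 34. A link between these transcripts and the GATA4 level was not tested.

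GATA4 lies on chromosome 8 from 11676959 to 11760002 on the + strand of GRCh38. Of 55 annotated genes within 500 kb, 13 were tested and 0 were called by edgeR, with a median log2 fold change of -0.10 and a range from -0.80 to 0.51. The nearest tested gene after it, NEIL2, a DNA glycosylase of base excision repair at a distance of 9.6 kb, had 894, 874 and 1346 counts in HAP1 against 835, 722 and 1315 in HELLS KO (log2 fold change -0.17, SE 0.13). FDFT1, an enzyme of sterol synthesis 35.6 kb away, had -0.14 (SE 0.19), and CTSB, a lysosomal protease 82.5 kb away, had -0.09 (SE 0.14). The nearest tested gene before it, FAM167A at -201.1 kb, had 26, 32 and 34 counts against 19, 14 and 22, a log2 fold change of -0.80 (SE 0.36) that did not pass (edgeR adjusted p = 0.83), although its CPM did not overlap between the genotypes. TDH, a threonine dehydrogenase pseudogene at -308.5 kb, had -0.59 (SE 0.27, edgeR adjusted p = 0.89). TDH-AS1 at -329.5 kb had -0.47 (SE 0.36) and FAM86B1 at 422.1 kb had -0.32 (SE 0.19), both without overlap in CPM. Libraries of the genotypes did not overlap for 10.1% of all tested genes. The share of all tested genes called was 2.22%.

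**Figure D4:**
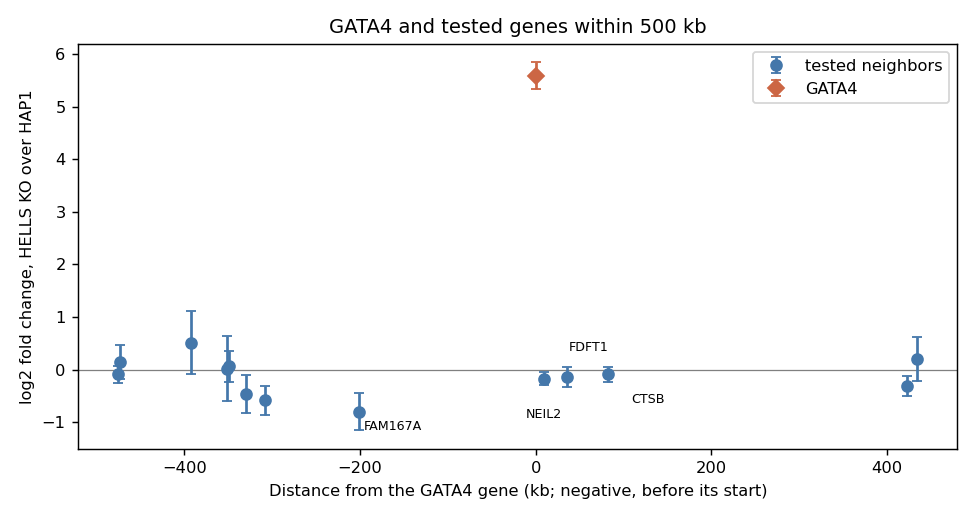
Log2 fold change of HELLS KO over HAP1 (y axis, with SE bars) for GATA4 and the 13 tested genes within 500 kb, by their distance from GATA4 in kb (x axis, negative before its start). GATA4 is at 5.59 and the neighbors lie between -0.80 and 0.51.

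GATA6 on chromosome 18 (22169589 to 22202528, + strand) had only 2 tested neighbors, the ubiquitin ligase gene MIB1 at -298.6 kb with a log2 fold change of -0.13 (SE 0.33) and ABHD3 at -464.8 kb with 0.06 (SE 0.21), both before its start. GATA3 on chromosome 10 (8045378 to 8075198, + strand) had 3, with log2 fold changes between -0.04 and 0.24. Of the neighbors of GATA2 on chromosome 3 (128479427 to 128493201, − strand), GATA5 on chromosome 20 (62463497 to 62475995, − strand), ZFPM1 on chromosome 16 (88453280 to 88537031, + strand) and ZFPM2 on chromosome 8 (104590733 to 105804539, + strand), 0 of 11, 23, 17 and 3 were called. Around GATA1 on chromosome X (48786540 to 48794311, + strand), 1 of 40 was called, SSX3, a cancer-testis antigen gene at -429.8 kb. SSX3 rose from 2, 0 and 0 counts in HAP1 to 210, 169 and 455 in HELLS KO (log2 fold change 8.34, SE 0.66, edgeR adjusted p = 0.0014).

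Partners, targets and regulators of GATA factors were taken from lists chosen by known function, which together held 218 genes other than the 8, marker genes included. The lists were drawn up with earlier results of these data known, so their calls are given as a description. Of these, 130 were tested, 0 were called higher and 5 lower by edgeR, or 3.85% against 2.22% of all tested genes, and 22 of the 130 had an unadjusted p under 0.05, against 1181 of 17925 over all tested genes. The median log2 fold change was -0.01, and 0.01 over all tested genes. With the replicate block 1 was higher and 6 were lower, as with DESeq2. The genes called lower were 3 of the blood list, 1 of the epithelial and trophoblast list and 1 of the upstream signals.

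The machinery through which GATA proteins act had the narrowest range of the lists. All 23 co-regulators, among them SMARCA4, the ATPase of the BAF remodeling complex, CHD4, the ATPase of NuRD, and the acetyltransferase EP300, were tested and 0 were called, with log2 fold changes from -0.11 to 0.12. The 3 named had -0.05, 0.04 and 0.02. Of the 5 other genes with a GATA-type zinc finger, among them RERE, MTA3 and TRPS1, 0 were called, with a median of 0.03.

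Known cardiac partners and targets of GATA4 were not called. Of 30 genes on the cardiac list 19 were tested, 0 were called in either direction by edgeR (1 with an unadjusted p under 0.05), and the median log2 fold change was -0.07. That gene, the troponin gene TNNI3, was named after its values were seen. It had 34, 53 and 34 counts in HAP1 against 20, 12 and 24 in HELLS KO, lower without overlap in CPM (log2 fold change -1.24, SE 0.45, edgeR adjusted p = 0.52). The partners SRF, TBX5 and MEF2A, which can act with GATA4 at cardiac promoters, were expressed in both genotypes with log2 fold changes of 0.02 (SE 0.12), -0.19 (SE 0.16) and 0.15 (SE 0.27). NPPA, which encodes atrial natriuretic peptide and is a textbook GATA4 target, had 2, 5 and 16 counts in HAP1 against 1, 8 and 7 in HELLS KO. NPPB had 0, 0 and 0 counts against 0, 4 and 0, and MYH6 had 0, 0 and 4 against 0, 0 and 0. NKX2-5 had 9, 8 and 6 against 2, 0 and 4, lower in HELLS KO without overlap in CPM. ACTC1, the cardiac actin gene, had 0, 0 and 10 counts against 4, 1 and 33 and was higher in HELLS KO within each replicate number. These 5 genes did not enter the fit and were named after their values were seen. HAND1, at 30, 29 and 14 counts against 10, 10 and 3, was not called here but passed as lower in 1 of 15 other fits, that with a term for the labeled batch.

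The endoderm list had 14 of 30 genes tested and 0 called by edgeR (3 with an unadjusted p under 0.05), with a median of -0.26. The laminin genes LAMC1 and LAMB1, basement membrane genes of parietal endoderm, had log2 fold changes of -0.03 (SE 0.20) and -0.41 (SE 0.22), and KLF5 had 0.20 (SE 0.11). The endoderm factors SOX17, FOXA2 and HNF4A had at most 6 counts in any library, whereas other factors of the list were expressed. FOXA1 had 1049 to 1621 counts and SOX7 had 277 to 607, with log2 fold changes of -0.21 (SE 0.16) and 0.01 (SE 0.17). These factors were named after their values were seen. The 3 genes with an unadjusted p under 0.05 were all lower in HELLS KO without overlap in CPM. SPARC had -0.40 (SE 0.10, edgeR adjusted p = 0.16), DAB2 -0.64 (SE 0.23, edgeR adjusted p = 0.49) and PRDM1 -1.30 (SE 0.38, edgeR adjusted p = 0.27). KLF5 and the chemokine receptor gene CXCR4 (log2 fold change 0.69, SE 0.39) did not overlap in CPM either and were higher in HELLS KO. Of the untested genes, PDX1, a homeobox factor of pancreas and duodenum, had 0, 2 and 0 counts in HAP1 against 6, 8 and 30 in HELLS KO without overlap. COL4A2, a basement membrane collagen gene, had 2, 8 and 10 counts against 21, 8 and 39. APOA1, an apolipoprotein gene, had 8, 5 and 6 counts against 0, 0 and 4, lower without overlap. All of these but KLF5 were named after their values were seen. Of 16 gonadal and adrenal genes 8 were tested and 0 called (4 with an unadjusted p under 0.05), with a median of -0.13. SOX8, LHX9 and WT1, the most expressed of them, had -0.23 (SE 0.23), -0.03 (SE 0.24) and 0.02 (SE 0.12). The 4 genes with an unadjusted p under 0.05, named after their values were seen, split by direction. INHBB, an inhibin beta subunit gene, had 211, 194 and 163 counts against 354, 360 and 391 without overlap in CPM (log2 fold change 0.88, SE 0.33, edgeR adjusted p = 0.57). AMH, which encodes anti-Müllerian hormone and is a known GATA4 target, had 246, 346 and 362 counts against 575, 402 and 557 with overlap in CPM (log2 fold change 0.65, SE 0.27, edgeR adjusted p = 0.73). INHA, the inhibin alpha gene, had -0.88 (SE 0.37) and STAR, a steroidogenic cholesterol carrier, had -1.03 (SE 0.42), with edgeR adjusted p = 0.74 and 0.70.

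Genes of the blood list, which gather partners and targets of GATA1 and GATA2, held most of the calls. Of 36 genes 14 were tested, and 0 were called higher and 3 lower, or 21.4% against 2.22% of all tested genes. An unadjusted p under 0.05 was found for 5, and the median was -0.12. FLI1, an ETS factor of megakaryocytes and endothelium, had 82, 67 and 79 counts in HAP1 against 2, 2 and 6 in HELLS KO, and fell by 4.60 on the log2 scale (SE 0.43, edgeR adjusted p = 0.0024). LYL1, a basic helix-loop-helix partner of GATA2, had 126, 118 and 73 counts against 8, 8 and 18, and fell by 3.42 (SE 0.49, edgeR adjusted p = 0.013). KIT, the stem cell factor receptor and a GATA2 target, had 319, 270 and 933 counts against 32, 40 and 138, and fell by 2.90 (SE 0.43, edgeR adjusted p = 0.015). In each of the 3 genes every HELLS KO library was below every HAP1 library. Leaving out HELLS KO replicate 1 or 2 raised the adjusted p of LYL1 and KIT above the cut-off, up to 0.095 and 0.11, while that of FLI1 stayed at or below 0.027 without any single library. FLI1 passed in 14 of 15 other fits, LYL1 in 12 of 15 and KIT in 13 of 16.

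The blood factors with the highest levels were not called. TAL1, a core partner of GATA1 and GATA2, had 1343, 1178 and 2400 counts against 1137, 1160 and 1984, a log2 fold change of -0.22 (SE 0.11, edgeR adjusted p = 1). MYB had -0.23 (SE 0.18) and RUNX1 had 0.27 (SE 0.24). HBE1, the embryonic globin gene of the beta cluster and a GATA1 target, had 0, 0 and 4 counts in HAP1 against 14, 14 and 46 in HELLS KO (log2 fold change 4.04, SE 0.85). It did not pass in the unblocked fit (edgeR adjusted p = 0.073). It passed in 6 of 15 other fits, among them that with the replicate block (edgeR adjusted p = 0.011). The other uncalled gene of the list with an unadjusted p under 0.05 was ITGA2B, a platelet integrin gene. ITGA2B had a log2 fold change of -0.64 (SE 0.27, edgeR adjusted p = 0.71), with overlap in CPM. HBA2, a globin gene nearly identical to HBA1, was called in 1 of 15 other fits.

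Of 19 genes linked with GATA3 in epithelium and trophoblast 10 were tested and 1 was called, the only one with an unadjusted p under 0.05. KRT8, a keratin of simple epithelia, had 1075, 1110 and 1289 counts in HAP1 against 191, 136 and 283 in HELLS KO, and fell by 2.61 on the log2 scale (SE 0.22, edgeR adjusted p = 0.0015). It passed in 16 of 16 other fits. Its filament partner KRT18 had 757, 772 and 959 counts against 751, 619 and 883, a log2 fold change of -0.19 (SE 0.19). The trophoblast factors TEAD4 and TFAP2C, which stood above it in level, had -0.04 (SE 0.17) and 0.04 (SE 0.11).

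Signals that act upstream of GATA4 and GATA6 in embryos were mostly expressed. Of 31 ligands, receptors and effectors of the BMP, activin, FGF and WNT pathways 26 were tested, with a median of 0.06, 6 had an unadjusted p under 0.05, and 1 was called. FGF4, a ligand that drives primitive endoderm, had 66, 99 and 238 counts in HAP1 against 14, 17 and 39 in HELLS KO, and fell by 2.52 (SE 0.38, edgeR adjusted p = 0.015). Leaving out HELLS KO replicate 1 or 2 raised its adjusted p to as much as 0.11, and it passed in 12 of 16 other fits. The effectors SMAD2 and SMAD5 and the ligand TGFB1 had log2 fold changes of 0.04 (SE 0.15), 0.01 (SE 0.26) and -0.01 (SE 0.27).

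**Figure D5:**
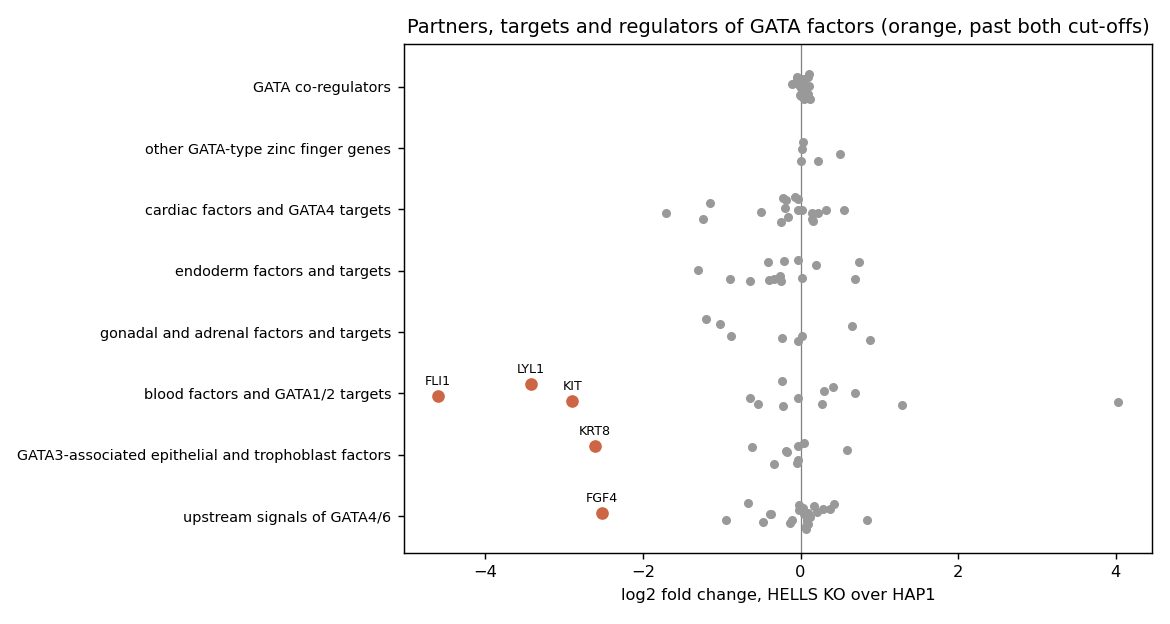
Log2 fold change of HELLS KO over HAP1 (x axis) for the tested genes of 8 lists of GATA partners, targets and regulators (rows), 1 dot a gene with vertical jitter only for visibility. Orange dots are the 5 genes past both edgeR cut-offs, from FLI1 at -4.60 to FGF4 at -2.52, and the gray dot at 4.04 is HBE1, which did not pass.

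The marker lists held few expressed genes. The 8 hepatocyte and yolk sac markers summed to between 0.559 and 1.26 CPM in all libraries, and 0 were tested. Of the 5 blood and 3 cardiomyocyte markers tested 0 were called by edgeR, with 1 unadjusted p under 0.05 in each list. The fibroblast and stromal markers summed to 146 to 156 CPM in HAP1 and to 64.7 to 80.6 CPM in HELLS KO, and DCN and LUM had 0 counts in all 6 libraries. Most of this sum was PDGFRA, a receptor also of primitive endoderm, and COL1A1. PDGFRA had 1046, 915 and 2619 counts against 268, 344 and 975, a log2 fold change of -1.59 (SE 0.32) that did not pass without the block (edgeR adjusted p = 0.061) and passed with it (edgeR adjusted p = 2.4e-04). The part of these levels in the GATA4 difference was not tested.

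The genes whose pattern was most like GATA4 were found by the Pearson correlation of log2 CPM over the 6 libraries, which share genotype and depth, so the value is a description. They were MAGEA3 (r = 0.9994), IRX4-AS1 (0.9988), LINC00648 (0.9976), CHFR (0.9973) and ZNF502 (0.9970). MAGEA3, a cancer-testis antigen on chromosome X, had 0, 2 and 0 counts in HAP1 against 1671, 1633 and 2319 in HELLS KO. CHFR, a mitotic checkpoint ubiquitin ligase, started like GATA4 from a measurable level, with 68, 71 and 107 counts against 732, 704 and 1473. The other 3 had at most 2 counts in any HAP1 library and between 24 and 235 in HELLS KO.

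The genes most like GATA6 by the same measure were C10orf95-AS1 (r = 0.9919), SUNO1 (0.9909), DMKN (0.9872), DENND2D (0.9848) and FGF19 (0.9839). Of these, FGF19, an endocrine fibroblast growth factor of the ileum, had 184, 177 and 174 counts in HAP1 against 31, 18 and 28 in HELLS KO (log2 fold change -2.87, SE 0.37). C10orf95-AS1 had a like shape with a much smaller amplitude, at 795, 768 and 1302 counts against 680, 621 and 1047.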

How the data were processed

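RNA-seq libraries of HAP1 and HELLS KO cells, 3 each, were prepared by the authors with a directional kit from total RNA. The authors aligned read pairs to GRCh38 with STAR 2.7.3a, kept unduplicated reads of adequate mapping quality, and deposited raw counts per gene from featureCounts 2.0.6. They also deposited an FPKM table of 24956 genes, used here to compare levels between genes. The processing notes name DESeq2 1.44.0. The strand setting and annotation release were not given in the sources used here. Samples were assigned from the sample records, and columns of other samples numbered 0.

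Identifiers were matched without version to GENCODE release 44 (56321 of 60483), which gave symbols and coordinates. The counts were filtered with filterByExpr of edgeR 4.0.16 (R 4.3.3) at 0.686 CPM in at least 3 libraries, scaled by TMM and tested with glmQLFTest, with Benjamini-Hochberg adjustment over 17925 genes. Calls needed an adjusted p under 0.05 and a log2 fold change of 1 or more in either direction. CPM in the text is the count scaled to the library total times its TMM factor, and the filter used the total alone. The common biological coefficient of variation was 0.242. Libraries of the same genotype differed beyond sampling noise (chi-square per gene at least 2.34). The steps were tested on simulated data. The members and gene lists were chosen with earlier results of these data known. No p-value is therefore printed for the members, and their calls in the fits are given as a description. Shared sequence was counted in stretches of 31 bases of annotated transcripts, and promoters of GATA1, GATA2, GATA3, GATA6 and ZFPM1 came from RefSeq (GRCh38.p14).

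Genes named were the 8 members, their antisense genes, list genes past both cut-offs, up to 3 others a list by mean CPM, genes within 500 kb that were called, the nearest tested genes, and the 5 genes most like GATA4 and GATA6. Named outside this rule, after their values were seen, were FDFT1, CTSB, TDH, TDH-AS1, FAM86B1, ABHD3, ACTC1, TNNI3, PDX1, COL4A2, SPARC, DAB2, PRDM1, CXCR4, APOA1, INHBB, AMH, INHA, STAR, KRT18, HBE1, HBA1, HBA2, ITGA2B, HAND1, NPPA, NPPB, MYH6, NKX2-5, SOX17, FOXA2, HNF4A, FOXA1, SOX7, HBB, MYH7, TNNT2, PTPRC, SPI1, DCN and LUM. Deviations from the genotype mean correlated between replicates of the same number at 0.416, 0.197 and 0.778, all over 0.1, so the numbers were treated as pairs in a fit with a replicate block. Across numbers, HAP1 replicate 1 with HELLS KO replicate 2 gave 0.330, and HAP1 replicate 2 with HELLS KO replicate 1 gave 0.591. These values do not set replicates 1 and 2 apart as pairs, whereas replicate 3 correlated negatively with the other numbers. The alternatives were DESeq2 1.42.0, upper-quartile and RLE scaling, no filter, at least 10 counts in every library, the block, a batch term, each library left out, replicates 1 and 2 only, and limma 3.58.1 on log2(FPKM + 1) and log2(FPKM + 0.1).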

Additional observations from a re-analysis of the deposited data

How the results depend on the processing

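The GATA4 log2 fold change of 5.59 lay between 5.42 and 5.87 when single libraries were left out, was 5.37 in replicates 1 and 2 only, and was 3.28 and 5.08 with limma on log2(FPKM + 1) and log2(FPKM + 0.1), since a pseudocount shrinks the fold of a gene that is low in one group. GATA3 ranged from -1.21 to -0.95, GATA6 from -2.56 to -1.83 and ZFPM1 from -0.85 to -0.05 without single libraries. GATA6 had -0.70 with limma on log2(FPKM + 1). None of the 5 tested members reversed past the cut-offs in any of the 16 alternatives.

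The replicate block, which treats the replicate numbers as pairs, gave 363 genes higher and 267 lower against 269 and 129 without it, with 1 list gene higher and 6 lower. It brought GATA3 and GATA6 past the cut-offs, as given above, and left GATA4 past them and GATA2 and ZFPM1 short of them. Genes higher numbered 415 with no filter, 29 with at least 10 counts in every library, 146 with limma on log2(FPKM + 1), and 112 to 273 without single libraries. Genes lower numbered 232 with DESeq2, 200 with no filter, 48 with at least 10 counts in every library, 285 with the batch term, 219 in replicates 1 and 2 only, 52 with limma on log2(FPKM + 1), and 40 to 176 without single libraries. They were 173 higher and 69 lower without HAP1 replicate 1, 201 and 84 without HAP1 replicate 2, then 160 and 62 when HELLS KO replicate 1 was left out and 112 and 40 when HELLS KO replicate 2 was. List genes higher numbered 1 with DESeq2, no filter, the batch term and limma on log2(FPKM + 0.1), and 0 to 2 without single libraries, with 2 without HAP1 replicate 3. List genes lower numbered 2 with at least 10 counts in every library and with limma on log2(FPKM + 1), and 2 to 6 without single libraries, with 2 without HELLS KO replicate 1 or 2. The cause of these shifts was not tested. At least 10 counts in every library removes genes that are absent in one genotype by construction. At this depth GATA1 and ZFPM2 were too low to compare, and GATA5 had a negative log2 fold change in each of the 8 alternatives that could fit it, past both cut-offs in 0.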
